A study of Mus musculus with 31 samples.

Results

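The 10 genes described here encode transcription factors and cofactors that set blood cell lineage, and they are Tal1, Lyl1, Lmo2, Gata1, Gata2, Runx1, Runx3, Spi1, Cebpa and Myb. They were taken by symbol from the 41255 genes listed in the tables of total mRNA and of polysomal RNA, and all 10 were found in both. The cells were clones of Ba/F3, a mouse lymphoid line that depends on interleukin-3. Every clone, WT or R98S, carried an shRNA against endogenous Rpl10 and a retroviral human RPL10 cDNA, either wild type (WT) or with the leukemia-associated R98S change, and was grown as a monoclonal culture. There were 3 WT clones (28, 29 and 36) and 3 R98S clones (11, 13 and 35), each sampled under up to 3 replicate numbers. Total mRNA came from 9 R98S and 8 WT libraries, polysomal RNA (pooled gradient fractions with 2 or more ribosomes per mRNA) from 8 R98S and 6 WT libraries, and 14 cultures had both. Values are read counts normalized by DESeq2 size factors within each table, called normalized read counts below.

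Tal1 and Lyl1 are related basic helix-loop-helix factors that bind DNA as dimers with E proteins and sit in complexes with the adaptor Lmo2, which binds no DNA itself, and with Gata1 or Gata2. Gata2 is used in progenitors and mast cells, and Gata1 takes over in erythroid cells, megakaryocytes and mast cells. Runx1 and Runx3 bind DNA with the partner Cbfb, Spi1 (PU.1) drives myeloid and B-cell genes, Cebpa directs granulocyte fate, and Myb keeps progenitors proliferating. Several of these genes, among them TAL1, LYL1 and LMO2, are switched on abnormally in human T-cell acute lymphoblastic leukemia, the disease in which RPL10 R98S was described.

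Promoter sequences (250 bases before to 50 bases after a start site) from RefSeq on GRCm38.p6 were matched for 8 of the 10 members, 12 promoters in all, and Spi1 and Lmo2 had no entry in that table. Those of Lyl1, Tal1 and Runx1 are printed because these genes were called in total mRNA below, and those of Runx3 and Runx2 because they share letters with Runx1. Capitals mark, on either strand, the GATA letters AGATAA or TGATAA, the E-box letters CAGNTG, the Ets letters GGAAG and the Runx letters TGTGGT. The Lyl1 window lies at chr8:84701207-84701506 on the plus strand, the Tal1 windows at chr4:115056176-115056475 and chr4:115057561-115057860 on the plus strand, Runx1 at chr16:92826025-92826324 on the minus strand, Runx3 at chr4:135120395-135120694 on the plus strand and Runx2 at chr17:44814578-44814877 on the minus strand.
Lyl1: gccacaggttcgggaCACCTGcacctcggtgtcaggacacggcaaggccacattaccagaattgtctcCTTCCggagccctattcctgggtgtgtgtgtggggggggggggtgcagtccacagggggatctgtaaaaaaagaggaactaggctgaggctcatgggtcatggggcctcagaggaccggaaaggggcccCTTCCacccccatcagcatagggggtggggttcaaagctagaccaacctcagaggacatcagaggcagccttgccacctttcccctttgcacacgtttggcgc
Tal1, upstream start: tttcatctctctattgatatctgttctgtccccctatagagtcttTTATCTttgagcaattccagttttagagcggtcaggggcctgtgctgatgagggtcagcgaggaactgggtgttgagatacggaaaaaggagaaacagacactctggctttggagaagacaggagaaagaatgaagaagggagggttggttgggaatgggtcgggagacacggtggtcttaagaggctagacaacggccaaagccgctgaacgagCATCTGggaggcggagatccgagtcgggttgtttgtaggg
Tal1, downstream start: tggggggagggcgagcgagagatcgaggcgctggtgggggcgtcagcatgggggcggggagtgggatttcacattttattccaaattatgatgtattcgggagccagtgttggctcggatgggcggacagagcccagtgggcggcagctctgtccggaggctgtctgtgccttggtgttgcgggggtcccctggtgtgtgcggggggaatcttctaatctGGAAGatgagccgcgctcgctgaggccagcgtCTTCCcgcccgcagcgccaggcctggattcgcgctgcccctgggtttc
Runx1, upstream start: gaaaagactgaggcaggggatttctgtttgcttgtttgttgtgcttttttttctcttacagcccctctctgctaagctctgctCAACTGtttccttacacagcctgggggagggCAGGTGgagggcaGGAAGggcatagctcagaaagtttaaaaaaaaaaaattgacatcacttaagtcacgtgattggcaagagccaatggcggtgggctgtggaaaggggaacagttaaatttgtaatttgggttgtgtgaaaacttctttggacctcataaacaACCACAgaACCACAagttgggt
Runx3, upstream start: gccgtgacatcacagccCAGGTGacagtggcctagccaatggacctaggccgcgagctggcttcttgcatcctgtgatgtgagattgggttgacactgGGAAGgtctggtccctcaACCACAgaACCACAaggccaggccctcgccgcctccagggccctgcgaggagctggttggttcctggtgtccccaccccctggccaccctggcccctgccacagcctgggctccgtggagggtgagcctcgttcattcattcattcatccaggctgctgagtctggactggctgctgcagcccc
Runx2: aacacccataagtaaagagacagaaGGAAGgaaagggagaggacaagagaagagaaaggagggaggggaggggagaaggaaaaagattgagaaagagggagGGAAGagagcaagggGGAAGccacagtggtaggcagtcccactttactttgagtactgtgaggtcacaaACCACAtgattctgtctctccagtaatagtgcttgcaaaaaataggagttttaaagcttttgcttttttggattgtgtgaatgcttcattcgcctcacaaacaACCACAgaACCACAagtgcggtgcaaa

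GATA letters were in 1 of the 12 member promoters, the upstream promoter of Tal1, and in 18.6% of all 32851 mouse promoters searched. E-box letters were in 7 of 12 member promoters and 51.4% of all, and Ets letters in 5 of 12 and 71.4%. Runx letters were in 2 of 12 member promoters and in 16.8% of all promoters. Both of those were the upstream promoters of Runx1 and Runx3, where the letters stood in 2 copies, separated by 2 bases. This arrangement was looked for after these promoters had been read, and it was present in 7 promoters in all, 0.0213% of those searched. Those of Runx1, Runx2 and Runx3 were 3 of them. These matches describe the letters only and no binding was measured.

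Depth ranged from 8831180 to 22059792 reads per library. All 10 members together took 0.18% to 0.369% of the reads of a total mRNA library. Rpl10, which the shRNA targets, read 620.3 to 5715 in WT and 901 to 2984 in R98S total mRNA. It does not check the labels, since the aligner can place human RPL10 reads on it and no library without the shRNA was analysed here. The total mRNA of WT clone 36 under number 1 was left out by the study because it grouped with R98S, and was not analysed here, so that the WT total mRNA group was in part chosen by expression profile. The polysomal libraries of number 3 stood apart from the others in both genotypes for several of the factors, as given with the ratios below. By GENCODE M21, exons of other genes on the opposite strand cover 6.26% of the exon bases of Myb, 1.93% of Cebpa, 0.881% of Runx1 and 0.222% of Lyl1, and none of the other members. Whether strand was used in counting is not given in the sources used here, so reads on those bases cannot be told apart.

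The clones expressed 9 of the 10 factors and not Cebpa. Per kilobase of exon in total mRNA, Gata2 was the most abundant, at 3868 ± 731 (SD, n = 17 libraries), a level higher than or equal to that of 98.6% of tested genes. It was followed by Tal1 (1559 ± 437), Lyl1 (1175 ± 537), Gata1 (1159 ± 429), Myb (589.6 ± 291), Spi1 (318 ± 65.1), Runx1 (215 ± 66.6), Runx3 (156 ± 40.1) and Lmo2 (99.7 ± 63.0), all as normalized read counts per kilobase. The median tested gene was at 136 on that scale, and of the 9 factors only Lmo2 lay below it. Gata2 exceeded Tal1 in 17 of 17 libraries. Lyl1 and Gata1 did not separate, since Lyl1 was higher in 9 of 17 libraries, and Myb exceeded Spi1 in only 12. The order below Tal1 also depended on the length used. With the longest coding transcript in place of all exons, Lyl1 came after Gata1 and Myb, Runx1 passed Spi1 in 9 of 17 libraries, and Runx3 (201) also lay below the median tested gene (206).

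**Figure D1:**
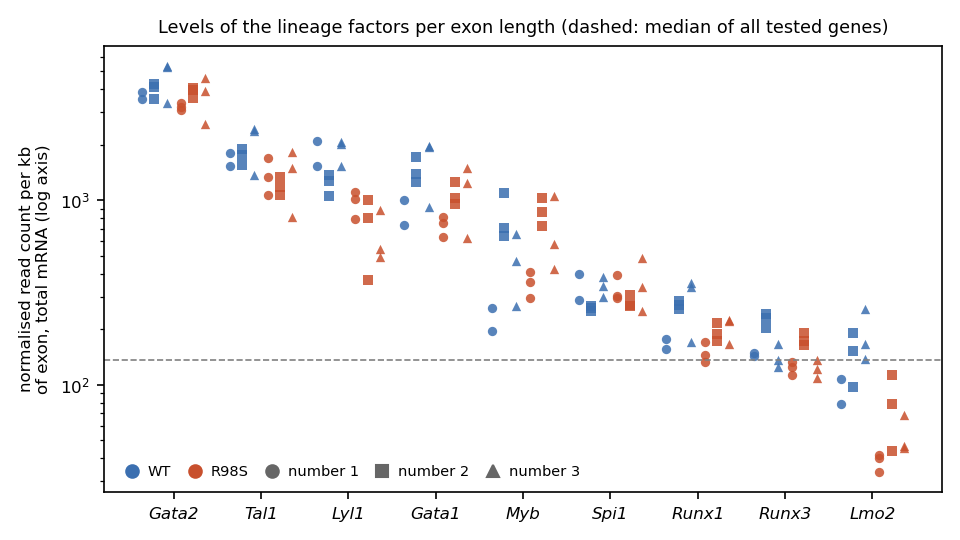
Total mRNA level of the 9 expressed lineage factors in each of 17 libraries, as normalized read counts per kilobase of exon on a log axis, colored by genotype and shaped by replicate number. Gata2 stands above all others in every library, and Lmo2 lies lowest on average, with its R98S libraries below its WT libraries in all but 1 case.

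Cebpa had 2 reads, both in the total mRNA library of WT clone 28 with number 2, out of 275548563 reads in all total mRNA libraries, and 0 reads in all 14 polysomal libraries. Over the polysomal libraries together that was 0 of 211462838 reads, and a count of 0 allows up to 3, counting error only. Its relatives Cebpe and Cebpb were expressed, at 548 and 201 normalized read counts per kilobase. Cebpa was not tested. The other 9 were tested in every comparison, and the lowest group mean among them was 92.2 (Lmo2 in R98S polysomal RNA), well above the minimum mean of 10, so that none entered through 1 genotype only.

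R98S was compared with WT by limma on log2(value + 1) values, over 11133 genes for total mRNA and 10707 for polysomal RNA. A gene was called at a Benjamini-Hochberg adjusted p under 0.1. In total mRNA 4 of 9 tested factors were lower in R98S, namely Lmo2, Lyl1, Tal1 and Runx1, where 15.8% of all tested genes were called lower. None was higher, where 14.5% of all genes were. In polysomal RNA 2 of 9, Lmo2 and Lyl1, were lower, where 5.87% of all genes were called lower, and none was higher, where 7.66% were. The replicate numbers paired the libraries. With the replicate number as a block, Gata1 and Runx3 were also called lower in total mRNA (6 of 9, against 19.9% of all genes) and Tal1 in polysomal RNA (3 of 9, against 15.7%). When the correlation within clones was estimated as well, Gata1 was no longer called in total mRNA (adjusted p = 0.131, limma), which left 5 of 9, and the polysomal count stayed at 3. With the clone correlation and no block Gata1 was called (adjusted p = 0.0994, limma), and a fit to clone means called the same 6 factors as the block, Gata1 with an adjusted p of 0.077 and Runx3 of 0.0544 (limma). The median log2 difference of the 9 factors was -0.42 in total mRNA and -0.17 in polysomal RNA, where the median of all tested genes was 0.0035 and -0.021. The libraries of a clone are not independent clones, and the p-values measure the spread between libraries. When clones were averaged, the 3 R98S clones lay below the 3 WT clones for 6 of 9 factors in total mRNA (Lmo2, Lyl1, Tal1, Runx1, Runx3 and Gata1), a pattern shown by 20.2% of all tested genes, and for Lmo2 and Lyl1 in polysomal RNA, where 13.4% of genes showed it. As bulk RNA was measured, fewer cells with a transcript and less transcript per cell cannot be told apart.

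**Figure D2:**
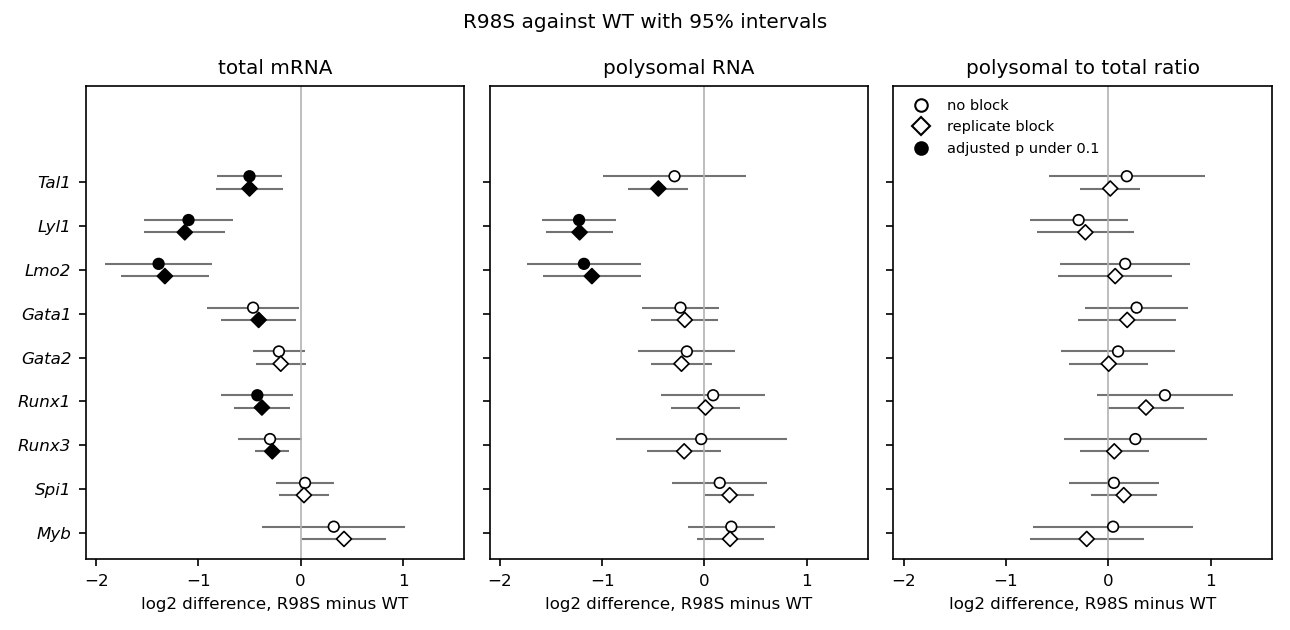
Log2 difference between R98S and WT with 95% intervals for the 9 tested factors in total mRNA, polysomal RNA and the ratio per culture, from limma without a block (circles) and with the replicate block (diamonds), filled where the adjusted p is under 0.1. Lmo2 and Lyl1 are filled in both RNA fractions under both fits, and nothing is filled for the ratio.

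Lmo2, the adaptor of the Tal1 complex, showed the largest difference of the 9 in total mRNA. In total mRNA its normalized read counts were 171, 314 and 555 (lowest, median and highest) in the 8 WT libraries and 72.7, 98.6 and 244 in the 9 R98S libraries. Each R98S library except clone 13 of number 2 was lower than every WT library. The log2 difference was -1.39 ± 0.25 (SE), a 2.62-fold lower level, with an adjusted p of 0.000637 (limma). In polysomal RNA the values were 116, 192 and 358 in 6 WT libraries and 57.8, 88.3 and 144 in 8 R98S libraries. Here 6 of 8 R98S values were under the lowest WT value, and the log2 difference was -1.18 ± 0.26 with an adjusted p of 0.00856 (limma). The clones differed within a genotype as well. In total mRNA the means of WT clones 28 and 36 were 372 and 385 and that of WT clone 29 was 226, whereas R98S clone 11 was at 95.2 with its 3 libraries between 90.4 and 100.6, and R98S clones 13 and 35 averaged 159.6 and 114 with their highest library under number 2.

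Lyl1, the Tal1 relative, gave the clearest separation in polysomal RNA. Its total mRNA values were 1906, 2759 and 3789 in WT and 663, 1451 and 2007 in R98S, and 8 of 9 R98S values were under the lowest WT value. The log2 difference was -1.10 ± 0.21, or 2.14-fold lower, with an adjusted p of 0.000962 (limma). In polysomal RNA the values were 1930, 3129.7 and 3928 in WT and 1061, 1238 and 1571 in R98S. The libraries of the genotypes did not overlap, and the share of all genes with that pattern was not computed. For clone means, 13.4% of tested genes had all R98S clones below all WT clones. The log2 difference was -1.23 ± 0.17, or 2.34-fold lower, with an adjusted p of 0.000155 (limma). The polysomal means of the 3 R98S clones, from 1168 to 1318, were closer together than those of the WT clones, from 2438 to 3928, the last being 1 library of clone 36. The calls for Lyl1 and Lmo2 were lost within the 3 R98S and 3 WT total mRNA libraries of number 2 (log2 differences of -0.88 and -0.94, adjusted p = 0.197 and 0.207, limma) and within the polysomal libraries of that number (-1.04 and -1.29, adjusted p = 0.194 and 0.299, limma). They held in the other 25 alternatives tried for total mRNA and the other 24 for polysomal RNA.

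Tal1, the second most abundant factor, was lower by a smaller amount. Total mRNA values were 6007, 7798 and 10627 in WT and 3539, 5823 and 7989.9 in R98S. In R98S 6 of 9 values were under the lowest WT value, and of the other libraries 2 were from clone 35 and 1 from clone 11. The log2 difference was -0.50 ± 0.15, or 1.41-fold lower, with an adjusted p of 0.0247 (limma). The clone means ran from 4305 in R98S clone 13 to 7081 in R98S clone 35, just under the lowest WT mean of 7143 in clone 36. Without R98S clone 13 the log2 difference was -0.31 (adjusted p = 0.144, limma). It was -0.46 without WT clone 28 (adjusted p = 0.1002) and -0.49 without number 2 (adjusted p = 0.156, both limma). The call was lost in each, while the last 2 differences stayed about as large as over all libraries. Tal1 was not called within any of the 3 numbers alone. In polysomal RNA the values were 2411, 4336 and 6651 in WT and 1538, 4308 and 5618 in R98S, which overlapped widely. The log2 difference there was -0.29 ± 0.33 (adjusted p = 0.702, limma), and with the replicate block it was -0.45 ± 0.14 (adjusted p = 0.0262, limma).

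**Figure D3:**
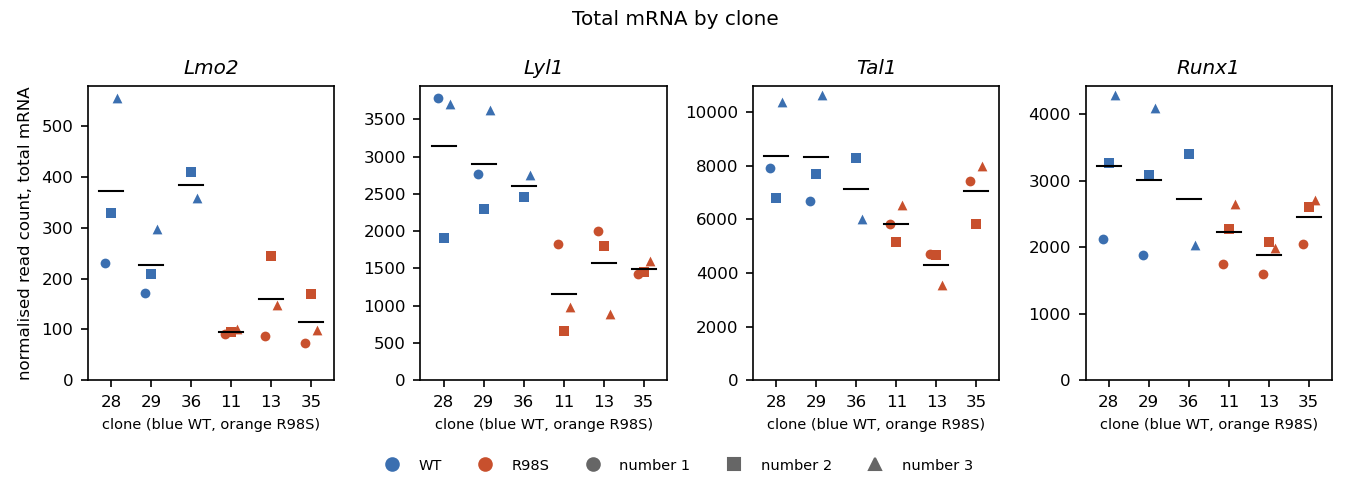
Normalized read counts in total mRNA of the 4 factors called in R98S against WT, for each library of each clone, with the clone mean as a bar. The means of the 3 R98S clones lie below those of the 3 WT clones for all 4 genes, with the widest gaps for Lyl1 and Lmo2 and the narrowest for Tal1 between R98S clone 35 and WT clone 36.

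The GATA factors shifted less. Gata1 total mRNA values were 1789.8, 3217 and 4801 in WT and 1519, 2327 and 3629.5 in R98S, with 2 of 9 R98S values under the lowest WT value. The log2 difference of -0.46 ± 0.22 did not pass the threshold (adjusted p = 0.129, limma), and with the replicate block it was -0.41 ± 0.17 and passed (adjusted p = 0.084, limma). With an estimated correlation within clones beside the block, the difference was -0.41 and did not pass (adjusted p = 0.131, limma). In polysomal RNA, where Gata1 stood at 2472, 2880.1 and 4087 in WT and 1936, 2435 and 3493 in R98S, the difference was -0.23 ± 0.18 (adjusted p = 0.507, limma). Gata2 overlapped between genotypes in both fractions. Its total mRNA values were 18218, 21576 and 28941 in WT and 14048.5, 19448 and 24814 in R98S, a log2 difference of -0.21 with a 95% interval from -0.47 to 0.04 (adjusted p = 0.226, limma). In polysomal RNA the difference was -0.17, with an interval from -0.65 to 0.30.

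Runx1 was called in total mRNA only. The values there were 1879.8, 3178 and 4289.7 in WT and 1599.5, 2072 and 2713 in R98S, and 5 of 8 WT libraries lay above all R98S libraries. The log2 difference was -0.42 ± 0.17, or 1.34-fold lower, with an adjusted p of 0.0782 (limma). Of the 4 calls in total mRNA this was held least often, in 16 of 26 alternatives. Its log2 difference was -0.16 within number 1, -0.49 within number 2 and -0.44 within number 3, none of them called (adjusted p = 0.573, 0.129 and 0.422, limma). It was -0.44 without R98S clone 11 (adjusted p = 0.172), -0.32 without R98S clone 13 (0.259), -0.36 without WT clone 28 (0.202) and -0.43 without WT clone 29 (0.109, all limma), so that the direction held while the call was lost. The call was also lost with quantile normalization of all libraries and without number 2 or number 3. In polysomal RNA Runx1 stood at 816, 1521 and 1979 in WT and 798, 1499 and 1877 in R98S, a log2 difference of 0.08 ± 0.24 (adjusted p = 0.899, limma). Runx3 had total mRNA values of 627, 789 and 1214 in WT and 544, 660.4 and 953 in R98S. Its log2 difference was -0.30 ± 0.15 (adjusted p = 0.162, limma), and with the replicate block -0.28 ± 0.08 (adjusted p = 0.0133, limma). Replicate number held 71.1% of the variance of its log2 values in total mRNA. In polysomal RNA Runx3 differed by -0.03 with an interval from -0.87 to 0.80.

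Spi1 and Myb were not called over all libraries. Spi1 read 674, 792 and 1079 in WT and 675, 812 and 1310.0 in R98S total mRNA, with a log2 difference of 0.04 and a 95% interval from -0.24 to 0.32. In polysomal RNA its difference was 0.15 with an interval from -0.31 to 0.61. Myb spread most widely within a genotype, with total mRNA values of 1754, 4931 and 9818 in WT and 2646, 5152 and 9417 in R98S. Those values followed the replicate number in both genotypes. The 5 libraries of number 1 read 1754 to 3659 and the 6 of number 2 read 5696 to 9818, while number 3 spanned 2389.7 to 9417. The log2 difference was 0.32 ± 0.34 (adjusted p = 0.525, limma) and with the block 0.42 ± 0.19 (adjusted p = 0.108, limma). In polysomal RNA the R98S libraries of Myb lay between 2854 and 4022 and the WT libraries between 1731 and 4986, a log2 difference of 0.26 ± 0.20 (adjusted p = 0.5200, limma). Myb was called higher in R98S in some subsets of libraries, namely total mRNA within number 1 (0.64, adjusted p = 0.0741), polysomal RNA without number 2 (0.56, adjusted p = 0.0951) and polysomal RNA within number 3 (0.54, adjusted p = 0.0711, all limma).

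**Figure D4:**
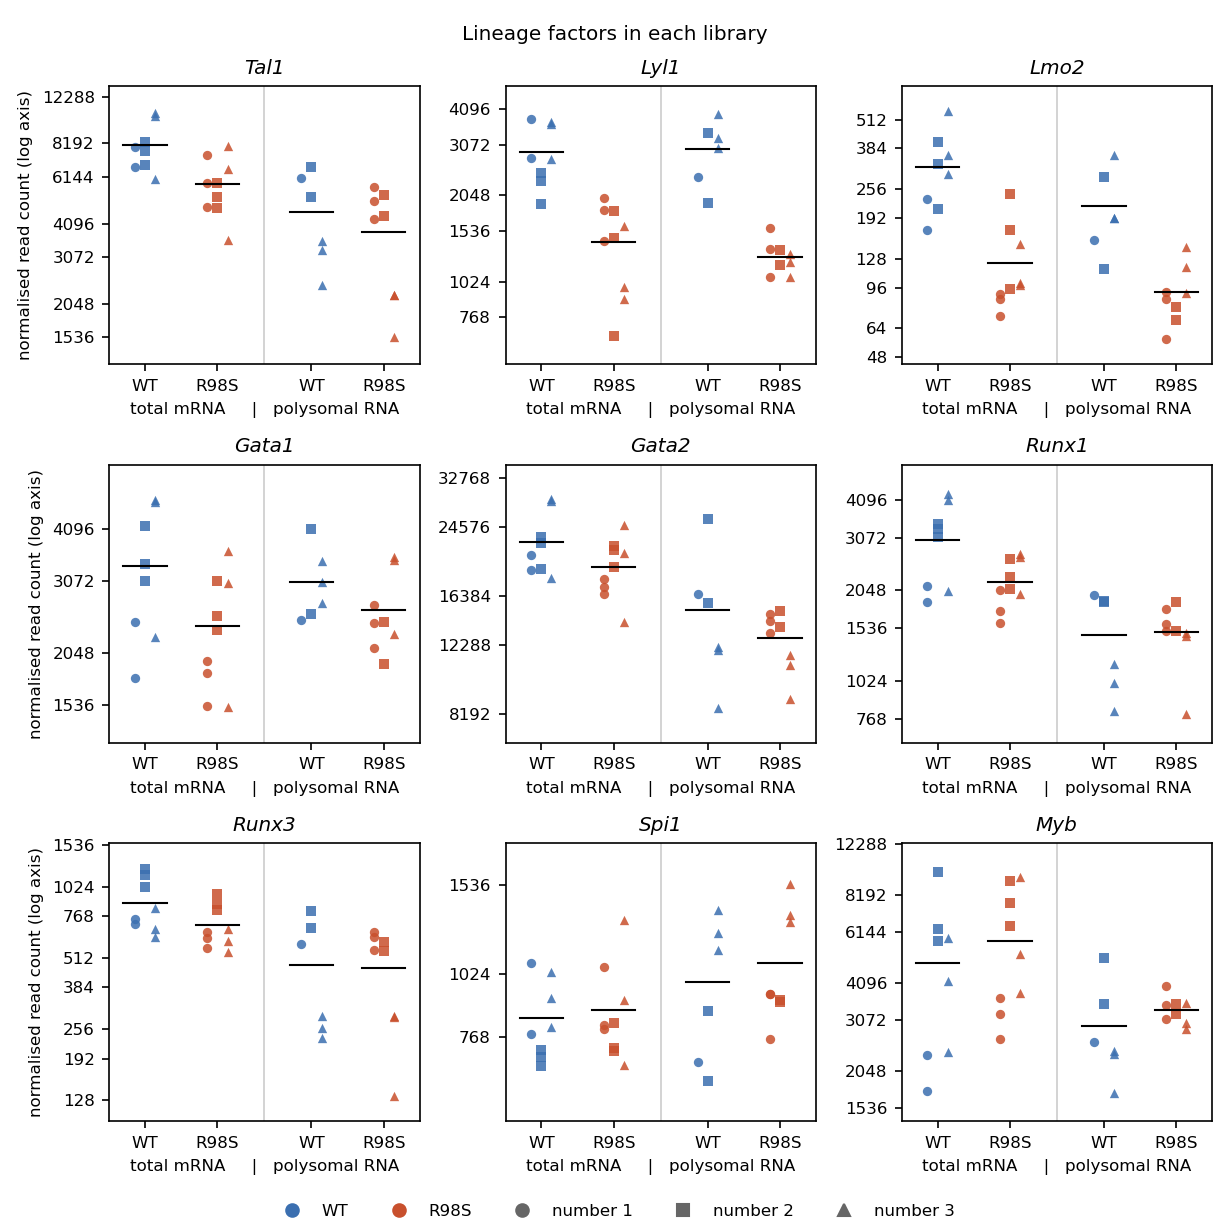
Normalized read counts (log axis) of the 9 expressed factors in each library of total mRNA and polysomal RNA, by genotype and replicate number, with group means as bars. R98S lies below WT for Lmo2 and Lyl1 in both fractions, and the triangles of number 3 sit apart from the others in polysomal RNA for Tal1, Runx1, Runx3, Gata2 and Spi1 in both genotypes.

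The polysomal to total ratio of each culture addresses whether a factor's share on polysomes differed between genotypes. It was computed as the log2 polysomal minus the log2 total value. The tables were normalized separately, so that a ratio of 0 marks neither equal amounts nor the average gene. Of the 9 factors 0 were called over 8 R98S and 6 WT cultures, where 0.0471% of 10623 tested genes were. None had an unadjusted p under 0.05 by limma over cultures, with or without the replicate block, or by edgeR or DESeq2. The log2 differences in ratio ran from -0.29 (Lyl1, 95% interval from -0.77 to 0.19) to 0.55 (Runx1, from -0.11 to 1.22), with adjusted p-values from 0.841 to 0.989 (limma). Lmo2 differed by 0.17 with an interval from -0.47 to 0.80, and Tal1 by 0.18 with an interval from -0.58 to 0.94. For Runx1, which was called in total mRNA and not in polysomal RNA, the ratio was the test of that contrast and did not pass. Its clone means did separate, from -0.63 to -0.49 in the R98S clones and from -1.45 to -0.81 in the WT clones, and 9.33% of all tested genes had all R98S clones above all WT clones. A fit to clone means gave a difference of 0.65 (unadjusted p = 0.0217, adjusted p = 0.492, limma), and with number as a block and an estimated correlation within clones it was 0.37 (unadjusted p = 0.0477, adjusted p = 0.388, limma). Ratios in R98S ran from -1.32 to -0.09 and in WT from -2.09 to 0.07 for this gene.

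The ratios followed the replicate number more than the genotype for several factors. For Tal1, the 6 cultures of number 3, both genotypes together, had ratios from -1.86 to -1.20, and the 8 cultures of numbers 1 and 2 from -0.40 to -0.10. Replicate number held 93.9% of the variance of the Tal1 ratio and genotype 1.77%. Number held 87.7% for Runx3, 75.8% for Runx1 and 65.0% for Gata2, but 16.7% for Lyl1 and 37.9% for Lmo2. For Tal1, Runx1, Runx3 and Gata2 all number 3 cultures lay below all others, 4 of 9 factors where 11.5% of all tested genes did so, and no factor lay above, where 13.9% did. The polysomal levels showed the same 4 factors below, where 15.2% of all genes were, and Spi1 above, where 17.1% were. Tal1 read 1538 to 3508 in the polysomal libraries of number 3 and 4254 to 6651 in the others. Runx3 read 134 to 292 against 549 to 805, and Spi1 read 1144 to 1548 against 629 to 937. In total mRNA no factor separated number 3 from the rest. The number 3 polysomal libraries held 12148603 to 15099877 reads, inside the range of the others (8831180 to 20754046). Their scaling differed at similar depth. In R98S clone 13, 1 read became 1.52 normalized reads in number 3 (12148603 reads) and 1.012 in number 2 (12406573 reads). In R98S clone 11 it became 1.192 in number 3 (13768171 reads) and 0.9182 in number 1 (14481427 reads). Whether this scaling has a part in the number 3 pattern was not tested.

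**Figure D5:**
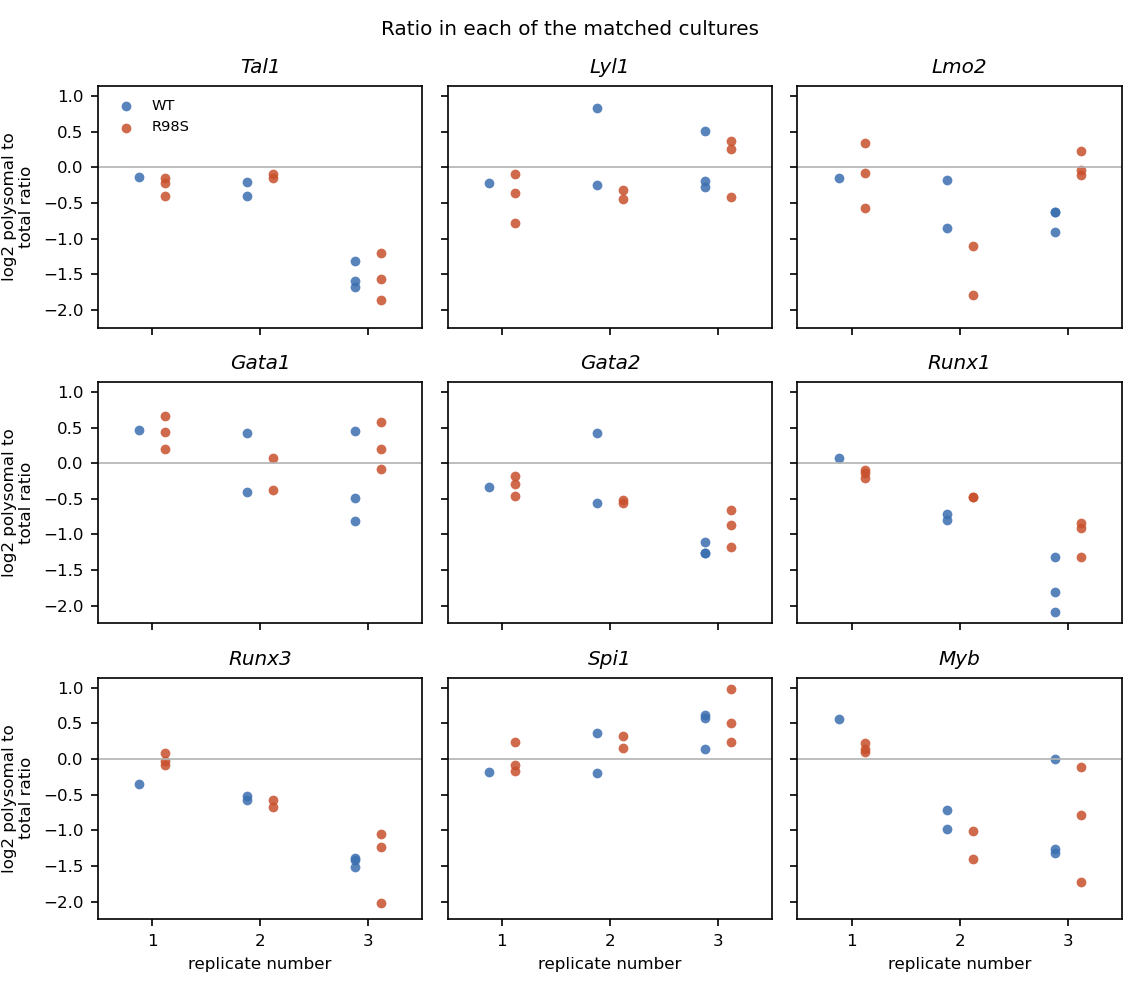
Log2 polysomal to total ratio of the 9 expressed factors in each of the 14 matched cultures, plotted by replicate number and colored by genotype. For Tal1, Runx1, Runx3 and Gata2 the cultures of number 3 lie below the rest in both genotypes.

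Binding partners and relatives of the members were counted from a list of 23 genes, of which 17 were tested. In total mRNA 7 were lower in R98S and 1 was higher (8 and 1 with the replicate block), with a median log2 difference of -0.31. Of all tested genes 15.8% were lower and 14.5% higher (19.9% and 18.5% with the block). In polysomal RNA 2 were lower and 1 higher (3 and 1 with the block), where 5.87% of all genes were lower and 7.66% higher (15.7% and 15.2% with the block), and for the ratio 0 of 17 passed. The Tal1 complex corepressor Cbfa2t3 read 3869 to 7504 in WT and 2114 to 3385 in R98S, a log2 difference of -0.97 ± 0.12 (adjusted p = 1.4e-05, limma). Its libraries did not overlap, and the share of all genes with that pattern was not computed. For clone means, 20.2% of tested genes had all R98S clones below all WT clones. In polysomal RNA Cbfa2t3 differed by -0.89 ± 0.19 (adjusted p = 0.00616, limma). The GATA cofactor Zfpm1 (FOG-1) was lower by 0.79 on the log2 scale in total mRNA (-0.79 ± 0.15, adjusted p = 0.000962, limma), and in polysomal RNA it differed by -0.11 ± 0.38. Of the E proteins that pair with Tal1 and Lyl1, Tcf4 was lower in total mRNA (-0.60 ± 0.14, adjusted p = 0.00548, limma), while Tcf3 differed by -0.07 ± 0.13 and Tcf12 by -0.05 ± 0.09. In polysomal RNA Tcf4 was also lower (-0.81 ± 0.20, adjusted p = 0.0158, limma), and Tcf3 differed by -0.38 ± 0.22 (adjusted p = 0.365, limma), which passed with the replicate block (-0.41 ± 0.17, adjusted p = 0.0911, limma). Ldb1, which joins Lmo2 to DNA-bound partners, differed by 0.22 ± 0.10 and was not called (adjusted p = 0.121, limma).

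Among the Runx family Runx2 went the other way from Runx1. It read 106 to 567 in WT and 225 to 604 in R98S total mRNA, a log2 difference of 0.79 ± 0.28 (adjusted p = 0.0498, limma), and was also higher in polysomal RNA (1.31 ± 0.43, adjusted p = 0.0731, limma). Their partner Cbfb, at 947 normalized read counts per kilobase, differed by 0.06 ± 0.16 in total mRNA and was not called. Cebpb (-0.76 ± 0.24), Cebpg (-0.74 ± 0.27), the Myb relative Mybl1 (-0.87 ± 0.28) and Cbfa2t2 (-0.31 ± 0.12) were called lower in total mRNA and not in polysomal RNA, with adjusted p-values in total mRNA from 0.027 to 0.076 (limma). Lmo4 and Cebpe, among the most abundant of the list, differed by -0.37 ± 0.34 and 0.18 ± 0.18 and were not called. Gata3, Lmo1, Tal2 and Spib had mean normalized read counts from 0 to 1.34 over the total mRNA libraries.

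Of 20 other blood transcription factors, 7 were tested, and the rest had means under 10. In total mRNA 2 were lower and 1 was higher (4 and 2 with the replicate block), where 15.8% of all genes were lower and 14.5% higher (19.9% and 18.5% with the block). In polysomal RNA 2 were lower, where 5.87% of all genes were. The 1 of 7 higher in total mRNA is about the share of all genes. Nfe2, a factor of erythroid cells and megakaryocytes, read 4694 to 8184 in WT and 2737 to 5961 in R98S, a log2 difference of -0.80 ± 0.16 (adjusted p = 0.0013, limma), and in polysomal RNA it was also lower (-0.56 ± 0.17, adjusted p = 0.0545, limma). The repressor Gfi1b was lower in total mRNA (-0.76 ± 0.27, adjusted p = 0.0467) and in polysomal RNA (-0.44 ± 0.16, adjusted p = 0.0985, both limma). The Ets factor Fli1 was higher by 0.29 ± 0.09 in total mRNA (adjusted p = 0.0246, limma). The erythroid factor Klf1 differed by -0.67 ± 0.37, with an adjusted p of 0.213 without and 0.0424 with the replicate block (limma).

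Marker genes were used to check the label of the line and to show what moved with the factors. Of 15 B-lineage markers only Cd79a (706 to 1293 over R98S and 746 to 942 over WT libraries) and Cd79b were tested. The defining B-lineage genes Pax5, Ebf1, Rag1 and Rag2 were at or near 0, with at most 1.0 normalized read counts in any total mRNA library, although the line is called lymphoid. Cd79a and Cd79b, which encode parts of the B-cell receptor, had means of 895 and 326. Cd79b was higher in R98S (0.87 ± 0.21, adjusted p = 0.00667, limma). Of 4 tested T-lineage markers Cd3d (1.85 ± 0.30) and Cd247 (1.79 ± 0.31) were higher and Cd3g (-3.06 ± 0.78) was lower, at means from 30.4 to 61.3, where 14.5% of all genes were higher and 15.8% lower. The defining genes Cd4, Cd8a, Cd2 and Thy1 were at means from 0 to 0.64. With the replicate block Lck was also called higher in total mRNA (adjusted p = 0.0567, limma), as were the polysomal to total ratios of Cd79b, Cd3d and Cd247 (adjusted p from 0.031 to 0.0399, limma), where 0.433% of all genes were called for the ratio. In polysomal RNA without the block the 3 tested T-lineage markers, Cd3d, Cd247 and Lck (0.83 ± 0.22, adjusted p = 0.0228, limma), were higher. Cd79b was too (1.49 ± 0.39, adjusted p = 0.0228, limma), where 7.66% of all genes were. Cd3d and Cd247 passed the minimum mean in polysomal RNA only through R98S (WT means of 9.38 and 9.01). B-lineage markers summed to 1126 to 1604 normalized read counts per total mRNA library in R98S and 969 to 1165 in WT, and T-lineage markers to 155 to 272 and 64.1 to 277.

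Markers of the lineages that Gata1, Gata2 and Tal1 serve were present unevenly. Mast cell and basophil markers summed to 1269.6 to 60343.5 normalized read counts per total mRNA library in R98S (median 19369) and to 1047 to 11550.5 in WT (median 3314), and 4 of 6 tested were higher in total mRNA, where 14.5% of all genes were, namely the mast cell proteases Cpa3, Cma1 and Mcpt8 and the histamine enzyme Hdc. In polysomal RNA 2 of 6, Cpa3 and Hdc, were higher (3 with the replicate block, which added Cma1 with an adjusted p of 0.0659, limma), where 7.66% of all genes were (15.2% with the block). Cma1 alone spanned 303 to 56111 in R98S and 559 to 9829.6 in WT, and so overlapped. Kit, the mast cell growth factor receptor, was at or near 0, with at most 1.12 normalized read counts in a total mRNA library. Megakaryocyte markers summed to 5231 to 10462 in R98S and 5947 to 14560.1 in WT. Of 6 tested, the platelet glycoproteins Gp1ba (-1.74 ± 0.36) and Gp9 (-1.60 ± 0.31) and also Treml1 were lower, where 15.8% of all genes were, while Itga2b, the most abundant, differed by -0.41 ± 0.18 (adjusted p = 0.113, limma, and 0.0192 with the replicate block). In polysomal RNA Gp1ba (-1.33 ± 0.51) and Gp9 (-0.79 ± 0.30) were called with the replicate block only (adjusted p = 0.129 for both without it, and 0.00379 and 0.0564 with it, limma). Of 4 tested erythroid markers the globin Hba-a1 was lower (-3.41 ± 0.59, adjusted p = 0.000484, limma), though it has a near-identical copy, Hba-a2, and reads could be split between them. That was 1 of 4 where 15.8% of all genes were lower, and with the replicate block it was 2 of 4, with Klf1, where 19.9% were. The erythroid sums were 455 to 1596 in R98S and 706 to 2733 in WT. Of 6 tested granulocyte and monocyte markers Prtn3 (-2.53 ± 0.43) and Lyz2 (-2.66 ± 0.73) were lower, where 15.8% of all genes were, and the sums were 630.4 to 2461 in R98S and 792 to 2901 in WT. Lyz2, too, passed the minimum mean only through WT (mean 50.6, against 9.85 in R98S). Whether these marker differences have a part in those of the lineage factors was not tested.

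For the 4 factors called in total mRNA, the genes with the most similar profile were found by Pearson's r of log2(value + 1) over the same 17 libraries and 11132 other tested genes. The points share genotype, clone and replicate number, so that r is a description. For Lmo2 these were Hemgn (r = 0.955) and Ces2g (0.942), and for Lyl1 they were Mmp9 (0.954) and Il34 (0.9204). Hemgn read 61.1 to 930.2 in WT and 0 to 41.6 in R98S total mRNA. As Hemgn was picked for its likeness to Lmo2 over these same libraries, a difference between genotypes is part of the choice. For Tal1 they were 1110007C09Rik (0.952) and Pdzk1ip1 (0.9202), and for Runx1 Ccni (0.948) and Tmem194b (0.947). Pdzk1ip1 lies on chromosome 4 in GRCm38, 16952 bases downstream of the Tal1 gene (chr4:115056426-115071755, plus strand), and the GENCODE exons of the genes do not overlap.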

How the data were processed

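Total mRNA and polysomal RNA of Ba/F3 clones were sequenced as stranded poly(A) libraries. Per the labels and the study's methods, the authors removed rRNA and tRNA reads with Bowtie2, aligned the rest to mm10 with TopHat2 2.0.11, and counted reads on exons (HTSeq is named in the submitters' processing notes). The deposited values are a signal, gene counts that the authors divided by DESeq2 size factors within each table, and whole reads were recovered from their steps. Genotype, clone and replicate number came from the labels. The members and lists were chosen with earlier results of these data known.

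Values were tested as log2(value + 1) where the mean over libraries was 10 or more, by limma 3.58.1 with a variance trend (R 4.3.3). The study used DESeq2 and Babel at a false discovery rate of 0.1. The ratio was the difference of the log2 values of a culture. P-values were two-sided and adjusted over all tested genes. The script was tested on simulated data. Libraries of the same replicate number deviated together from their group means (r from 0.481 to 0.867 for each of the 3 numbers in each of the 3 comparisons), so the numbers were taken to pair the libraries from the data and not from the labels. The fit with the replicate number as a block is given where it changes a call of a member or of a named list gene. edgeR 4.0.16 and DESeq2 1.42.0 on recovered reads were among 26 alternatives. All members are named. From each list up to 8 called genes with the smallest adjusted p and up to 4 with the highest level per kilobase were eligible, and the 2 genes most like each member called in total mRNA. Other names (Tcf3, Tcf12, Ldb1, Klf1 and genes at or near 0) were chosen after their values were seen. Klf1, Mitf and Cebpe stood on 2 lists each. Some genes of the marker lists are not reported here. Libraries of the same clone differed by more than sampling noise (chi-square per degree of freedom of at least 4.56).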

Additional observations from a re-analysis of the deposited data

Results flagged for a closer look

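In polysomal RNA the R98S library of clone 13 with number 3 read 798 for Runx1, and the nearest of the other 7 R98S libraries read 1444, a gap that exceeds the limit for an outlying value in a group of 8. It was the 1 of 54 groups of values of the 9 expressed factors that passed this limit, and chance alone would mark about 5% of groups. The same library had the lowest polysomal values of Runx3 (134) and Tal1 (1538) among all 14 libraries.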

How the results depend on the processing

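Over 27 results and 26 alternatives, 606 of 684 values kept their direction and side of the threshold, and the 43 that turned direction were all of differences that had not been called. The count of factors called in total mRNA was 4, and within number 1 it was 3 (Lyl1 and Lmo2 lower, Myb higher), within number 2 it was 0 and within number 3 it was 2. It ranged from 2 to 4 when a replicate number or a clone was left out, being 2 without number 2, R98S clone 13 or WT clone 28. It was 5 by DESeq2, with clone as a correlated block and without WT clone 29 of number 1 (Gata1 added in each), 5 without R98S clones 13 and 35 of number 2 (Runx3 added) and 6 with clone means. Quantile normalization of all libraries ended the call of Runx1 in total mRNA. The polysomal count was 2, and 0 within number 2 and 4 within number 3 (Tal1, Lyl1 and Lmo2 lower, Myb higher). Within a number only 3 libraries or fewer per genotype remained, and the cause of each change was not tested. Polysomal and ratio values within number 1 could not be tested, as it held 1 WT library.

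With the replicate block, 6 factors were called in total mRNA and 3 in polysomal RNA, the ratio of Myb changed direction to -0.21, and no other direction or call of a factor changed beyond those in the report. With clone means Runx3 was 0.14 in polysomal RNA and the Myb ratio -0.058, and with clone and number both as blocks the Myb ratio was -0.20 and the total mRNA count 5, without Gata1.

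Within number 1 Spi1 in total mRNA was -0.059. Within number 2 the polysomal difference was -0.16 for Runx1 and -0.32 for Myb, and the ratio difference was -0.16 for Gata1, -0.47 for Gata2, -0.074 for Runx3, -0.93 for Lmo2 and -0.36 for Myb. Within number 3 the ratio difference was -0.014 for both Tal1 and Myb and 0.053 for Lyl1, while Lmo2 was 0.75 (unadjusted p = 0.0053) and Runx1 0.72 (0.0313), with adjusted p-values of 0.217 and 0.29 (limma). Without WT clone 29 of number 1, Runx3 was 0.062 in polysomal RNA and the Spi1 ratio -0.026, and without R98S clones 13 and 35 of number 2 the Tal1 ratio was -0.013.

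When a number or a clone was left out, Spi1 ranged from -0.072 to 0.15 in total mRNA. In polysomal RNA Gata2 ranged from -0.42 to 0.018, Spi1 from -0.075 to 0.30, Runx1 from -0.22 to 0.33, Runx3 from -0.28 to 0.21, Tal1 from -0.49 to 0.0081 and Myb from -0.050 to 0.56. The ratio ranged from -0.24 to 0.39 for Gata2, -0.087 to 0.18 for Spi1, -0.027 to 0.45 for Runx3, -0.25 to 0.54 for Lmo2 and -0.22 to 0.19 for Myb. Cebpa, with 2 reads in all, was too low to test at this depth.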
